A study of Rattus norvegicus with 26 samples.

Results

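Olfactory receptors are the odorant-detecting receptors of the nose, and 1187 array probes, for 1149 genes, matched a rat olfactory receptor symbol (Or and a digit, older name Olr). Of these, 181 probes (15.2%), for 178 genes, were well above background on all 8 arrays of saline-treated rats. This flag of the scanner software marks a spot that is clearly brighter than its background. The 181 probes were thus chosen by their saline signal, and every comparison with saline below is a description with no test. The tissue was thoracic aorta. All rats, controls included, were male and spontaneously hypertensive, that is, of an inbred line that develops high blood pressure by itself, and were dosed by mouth for 4 weeks. They received saline (7.5 mL per kg, 8 arrays), the herbal preparation Songling Xuemaikang capsule (SXC) at 236.25 mg per kg (low dose, 6 arrays) or 708.75 mg per kg (high dose, 6 arrays), or the angiotensin receptor blocker valsartan at 21.6 mg per kg (6 arrays). The series text gives 8 valsartan rats, and the labels do not state an age.

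Olfactory receptors are G protein-coupled receptors and form the largest gene family of the rat. A mature olfactory sensory neuron expresses a single receptor gene from a single allele, and odorant binding acts through the olfactory G protein, adenylyl cyclase 3 and a cyclic nucleotide-gated channel. Class I receptors (families 51 to 56) resemble those of fish and class II receptors (families 1 to 14) those of land animals. A few, among them Or51e1 and Or51e2, have been described outside the nose, Or51e2 in blood vessels and kidney in particular.

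The 300-base windows of 4 genes are shown because their probes carry the results below: the brightest, the one known outside the nose, and a pair of nearby paralogs among the largest differences between groups. Each window runs from 250 bases before to 50 after the gene start in RefSeq (GRCr8, 5′ to 3′ on the gene's strand), with the ATG at the gene start in capitals.
Or6al1 (chr1:74822018-74822317, + strand): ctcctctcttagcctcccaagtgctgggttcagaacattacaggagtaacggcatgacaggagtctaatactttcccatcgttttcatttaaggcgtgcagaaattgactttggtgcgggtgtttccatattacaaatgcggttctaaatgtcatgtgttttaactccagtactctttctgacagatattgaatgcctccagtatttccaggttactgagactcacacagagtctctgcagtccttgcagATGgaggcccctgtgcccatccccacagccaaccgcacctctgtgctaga
Or51e1 (chr1:166559971-166560270, + strand): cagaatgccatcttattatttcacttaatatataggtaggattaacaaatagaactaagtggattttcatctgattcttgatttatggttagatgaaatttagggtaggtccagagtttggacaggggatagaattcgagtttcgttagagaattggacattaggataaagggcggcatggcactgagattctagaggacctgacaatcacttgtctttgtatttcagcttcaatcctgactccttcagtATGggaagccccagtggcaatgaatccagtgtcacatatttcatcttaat
Or52ae7 (chr1:167264995-167265294, + strand): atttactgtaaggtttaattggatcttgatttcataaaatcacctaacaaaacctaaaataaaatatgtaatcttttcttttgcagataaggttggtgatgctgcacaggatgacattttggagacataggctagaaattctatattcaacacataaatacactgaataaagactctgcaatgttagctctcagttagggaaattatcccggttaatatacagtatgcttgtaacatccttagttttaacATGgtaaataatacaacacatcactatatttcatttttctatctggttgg
Or52ae7b (chr1:167209404-167209703, + strand): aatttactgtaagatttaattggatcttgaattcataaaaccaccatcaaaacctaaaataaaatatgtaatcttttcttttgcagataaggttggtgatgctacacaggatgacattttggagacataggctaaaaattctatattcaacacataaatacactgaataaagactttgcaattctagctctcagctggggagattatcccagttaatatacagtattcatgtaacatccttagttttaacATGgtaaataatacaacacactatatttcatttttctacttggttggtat
The windows of Or52ae7 and Or52ae7b aligned with 279 identical bases over 304 columns (91.8%). Most of each window lies before the gene start, and whether their probes share signal was not tested. Windows were found for 149 of the 178 genes. In 147 of them (98.7%) the RefSeq gene began with ATG, against 96.8% of the other olfactory receptor genes and 9% of all 33469 genes of the table, so most of these models begin at the coding sequence and their upstream bases need not be a promoter. Upstream GC content had a median of 34.8% for these genes, 34% for the other olfactory receptor genes and 51.2% for all genes. On either strand, TATAAA was in 33.6% of the windows (other olfactory receptors 36.8%, all genes 12.9%), and TAATTA, the core letters of homeodomain sites, in 14.1% (19.6% and 4.86%). The CArG box of serum response factor was in 0.671%, 0.961% and 1.5%. These motifs may overlap one another, and a match is a description of letters.

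The aorta label was borne out by smooth muscle markers: all 8 were well above background on every saline array, with Acta2 (smooth muscle actin) at a level of 6.53 ± 1.27 (SD, n = 8). Levels here are log2 processed intensities minus the 75th percentile of the array, so 0 is the brightness that 75 percent of probes do not exceed. Brightness differed between arrays: the 75th percentile of intensity was 724 to 869 for saline, 545 to 710 for the low dose and 172 to 447 for valsartan, and the high-dose arrays had means of 644.5 on scan day 1, 222 on day 3 and 315 on day 4 (2 arrays each). All saline arrays were scanned on the last of 5 scan days, 82 days after the last treated array, so a difference from saline and a difference between scan days cannot be told apart. Low-dose arrays 1 and 6 and high-dose arrays 1 and 2 were scanned on day 1, low-dose arrays 2 to 5 on day 2, high-dose arrays 3 and 6 and all valsartan arrays on day 3, and high-dose arrays 4 and 5 on day 4. Days 3 and 4 used a detector gain of 323 to 325 V and the other days 353 to 354 V. Saline arrays 4 and 8 lay close to the average of arrays 1 and 2 and of arrays 2 and 3 (SD of the difference 0.164 and 0.155 on the log2 scale, against 0.223 or more for treated arrays and averages of their own group), so 8 may overstate the independent saline samples.

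Other chemosensory receptor families had shares of detected probes close to that of olfactory receptors (15.2%). Of vomeronasal type 1 receptors 9 of 49 probes (18.4%) were well above background on all saline arrays, of type 2 receptors 16 of 90 (17.8%), of trace amine-associated receptors 3 of 17 (17.6%), and of taste receptors 6 of 33 (18.2%), against 19767 of 30367 probes (65.1%) in all. Most olfactory receptor probes, 685 of 1187, were well above background on 0 saline arrays, and 51 were on 7 of the 8. Just inside the rule lay Or51f1g, Or9e1 and Or7g25, with mean saline levels of -4.81, -4.85 and -4.88. Just outside it, on 7 of 8 arrays, the brightest were Or2d2 (-0.61), Or8b52 (-3.69) and Or2v2b (-4.00). The rule works by detection on each array, so a probe outside it can be brighter on average than one inside.

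The members came from both classes and from most families. Class I gave 27 of its 126 probes (21.4%), class II 148 of 1001 (14.8%) and genes with only an Olr number 6 of 60 (10%). The largest contributions came from families 4 (24 of 146 probes), 2 (21 of 120), 8 (19 of 127), 5 (17 of 157) and 52 (17 of 71). Along the gene order of the chromosomes, 15.6% of the olfactory receptor genes next to a member were members, against 15.2% of those next to another olfactory receptor gene. The genes with a pair of member probes were Or10p22, Or1f20 and Or8b12, and for Or8b12 the probes disagreed in level (2.95 and -3.74 on saline).

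Most of the probes were faint. Of the 181, 175 lay below the 75th percentile on saline, with a median level of -3.50, quartiles of -4.07 and -2.51 and a range of -4.88 to 5.24. The other 19586 probes of the same detection rule had a median of -0.99. The 6 above the 75th percentile were Or6al1, Or8b12, Or4d6, Or8c10b, Or2ak6 and Or8w1b. Where a probe is faint in bulk tissue, fewer cells carrying the RNA and less RNA per cell cannot be told apart, nor can RNA of a near-identical receptor from its own.

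Genes that carry the olfactory signal were present in part. Of 20 listed genes of olfactory transduction and olfactory neurons 19 were measured, 10 (52.6%) were well above background on all saline arrays, where 65.1% of all probes were, and 5 on 0 of them. The 5 were the olfactory marker protein gene Omp (-7.33), the phosphodiesterase Pde1c, the receptor transporter Rtp2, the neuronal regulator Lhx2 and the receptor kinase Grk3. Well above background on all 8 were Gnal, the olfactory G protein (2.27 ± 1.41, SD, n = 8), Adcy3, adenylyl cyclase 3 (-3.27 ± 0.20), the channel subunit gene Cngb1 (-1.93 ± 1.08) and Rtp1, which carries olfactory receptors to the membrane (-4.05 ± 0.70). The channel genes Cnga2 and Cnga4, by contrast, were detected on 1 and 3 saline arrays.

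The brightest member was Or6al1 (older name Olr1), a class II receptor. Its levels (lowest, median, highest) were 4.77, 5.19 and 5.86 on saline, 5.32, 5.74 and 6.04 at the low dose, 5.43, 5.58 and 6.14 at the high dose and 5.58, 5.97 and 6.74 on valsartan. The treated groups overlapped throughout, and no comparison between them passed limma's test (adjusted p = 0.222 to 0.78). Next was Or8b12, at 2.41, 2.65 and 4.75 on saline, 2.85, 3.25 and 3.86 at the low dose, 3.27, 4.35 and 4.84 at the high dose and 4.29, 4.92 and 5.70 on valsartan. Every valsartan array was above every low-dose array, a difference of 1.67 ± 0.33 (SE, limma, adjusted p = 0.000759). With scan day or gain as a block in the fit this difference did not pass. The second probe of Or8b12 gave 0.21 for the same difference (limma, adjusted p = 0.801).

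Some members varied little in scaled level over the 26 arrays, compared with the other members. Or4d6 (older name Olr325) had the smallest spread over the arrays (SD 0.28), at 0.11, 0.36 and 0.53 on saline, -0.05, 0.27 and 0.67 at the low dose, 0.14, 0.77 and 0.86 at the high dose and 0.16, 0.54 and 0.97 on valsartan. All its groups overlapped. Without scaling of the arrays, Or4d6 differed by -0.77 between valsartan and the low dose (limma, adjusted p = 0.0227). Or2ak6 (SD 0.33) ran from -0.18 to 1.26 and Or4a80 (SD 0.38) from -2.01 to -0.53 over all arrays. Or8w1b, Or1f26 and Or8s5, the remaining ones of the 8 brightest, had saline means of 0.11 ± 0.51, -0.07 ± 0.42 and -0.07 ± 0.87 (SD, n = 8). Only Or8s5 among these 3 differed between treated groups, lower by 1.06 ± 0.33 (SE) on the log2 scale on valsartan than at the low dose (limma, adjusted p = 0.0166). This difference did not pass with scan day or gain as a block in the fit.

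Or8c10b (older name Olr1229) lay above every saline array on every treated array. It was 1 of 26 members (14.4%) that did so, where 6.62% of all probes tested did, and all saline arrays were scanned on a day of their own. It lay at -0.61, -0.35 and 1.42 on saline, at 2.92, 3.70 and 4.60 at the low dose, at 3.56, 3.90 and 4.65 at the high dose and at 2.73, 3.32 and 3.62 on valsartan. The saline arrays were themselves uneven, with some near the lowest value and others near the highest. The treated groups overlapped, and none of their 3 comparisons passed (adjusted p = 0.263 to 0.58).

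**Figure D1:**
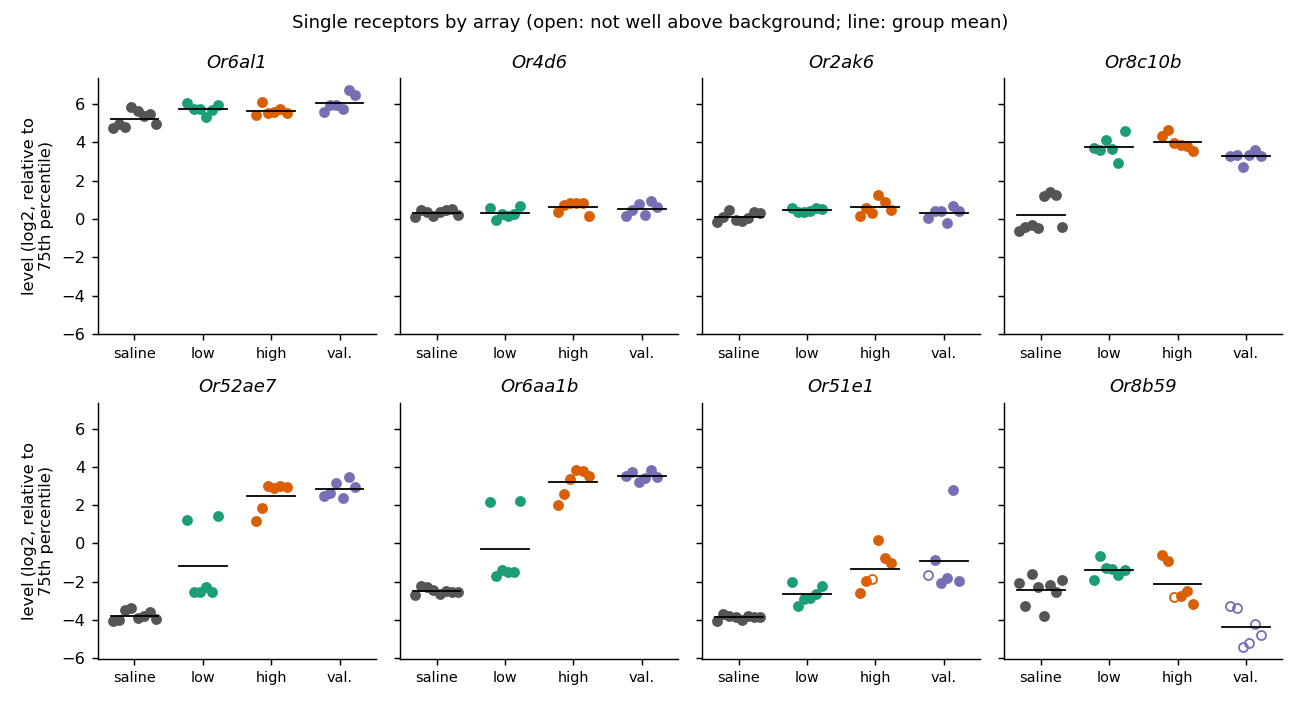
Level (log2 intensity minus the array's 75th percentile) of 8 receptors on every array, by group. Filled points are well above background, open points are not, and lines are group means. Or6al1, Or4d6 and Or2ak6 stay within about the same band in all groups. Or52ae7 and Or6aa1b have 2 low-dose arrays apart from the other 4, and Or8b59 has no filled valsartan point.

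Over all 181 probes the spread was wider than these steady ones. The SD of level over the 26 arrays had a median of 0.93 (range 0.28 to 3.03), against 0.65 for the other probes of the same saline rule. It was under 0.5 for 14 members and over 2 for 12. Within groups the median SD was 0.51 at the low dose, 0.59 on valsartan and 0.78 at the high dose, whose arrays span 2, 1 and 3 scan days. On saline, where the rule chose the members and all arrays share 1 scan day, it was 0.39, and 0.33 for the other probes of the rule.

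Detection outside saline followed the array. The low-dose arrays had 176 to 180 of the 181 probes well above background. The high-dose arrays had 179, 177, 52, 170, 148 and 133 (replicates 1 to 6), and the valsartan arrays 53, 91, 134, 118, 77 and 89. Of the 16 arrays at the higher gain, those of saline had 181 by the rule itself. The treated ones had 176 to 180, and the 10 arrays at the lower gain, all treated, had 52 to 170. High-dose array 3 and valsartan array 1 had the fewest, and they also had the brightest negative control spots (5.14 and 5.56 on the log2 scale, against 0.97 to 4.43 elsewhere). The part of gain and background in these counts was not tested.

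**Figure D2:**
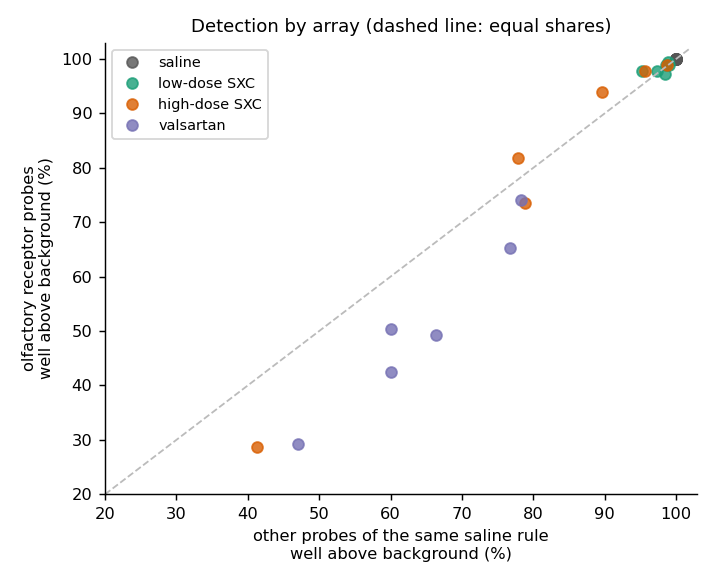
Share of the 181 olfactory receptor probes well above background on each array, against the same share of the 19586 other probes that met the saline rule. Points below the dashed line are arrays where the receptor probes were lost more often, with 29.3% to 74% of them on the valsartan arrays. Points above it include high-dose arrays 4 (93.9% against 89.6%) and 5 (81.8% against 77.9%). The other probes were brighter on saline.

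Only 37 of the 181 (20.4%) were well above background on all 26 arrays, against 37% of the other probes of the saline rule. Those other probes were brighter on saline (median level -0.995 against -3.505), and the sets were not matched for brightness. The members held on all low-dose arrays numbered 168 (92.8%, others 94.4%), on all high-dose arrays 49 (27.1%, others 40.1%) and on all valsartan arrays 42 (23.2%, others 43.6%). On valsartan 34 were well above background on 0 arrays. For such probes a lower level is a bound.

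Levels of the members as a whole shifted with both group and scan day. The median level on an array was -3.65 to -3.31 on saline, -3.51 to -2.25 at the low dose, -2.63 to -1.24 at the high dose and -2.45 to -1.86 on valsartan. The medians of all high-dose and valsartan arrays, and of the low-dose arrays of day 1, lay above all saline medians, and those of the low-dose arrays of day 2 overlapped saline. Within the low dose the day 1 arrays, at -2.25 and -2.39, lay above the day 2 arrays, at -3.51 to -3.18, and beside the high-dose arrays of day 1 (-2.63 and -2.16). The median rank of the members among all probes, as a percentile, was 43.7 to 45.5 on saline, 46.8 to 55.4 at the low dose, 52.2 to 63 at the high dose and 54.3 to 58 on valsartan.

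Before scaling, the pattern was less one-sided. The median log2 intensity of the members was 5.94 to 6.29 on saline, 6.90 to 7.04 on the 4 arrays of day 1, 5.84 to 5.96 on the low-dose arrays of day 2, 5.57 and 6.05 on the high-dose arrays of day 3, 6.66 and 7.23 on those of day 4 and 5.18 to 6.75 on valsartan. The arrays of days 1 and 4 were thus brighter for these probes than every saline array, and the low-dose arrays of day 2 overlapped saline. The arrays of the lower gain had the lowest 75th percentiles of intensity, 172 to 447, and their member medians relative to it, -2.45 to -1.24, overlapped those of the day 1 arrays.

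**Figure D3:**
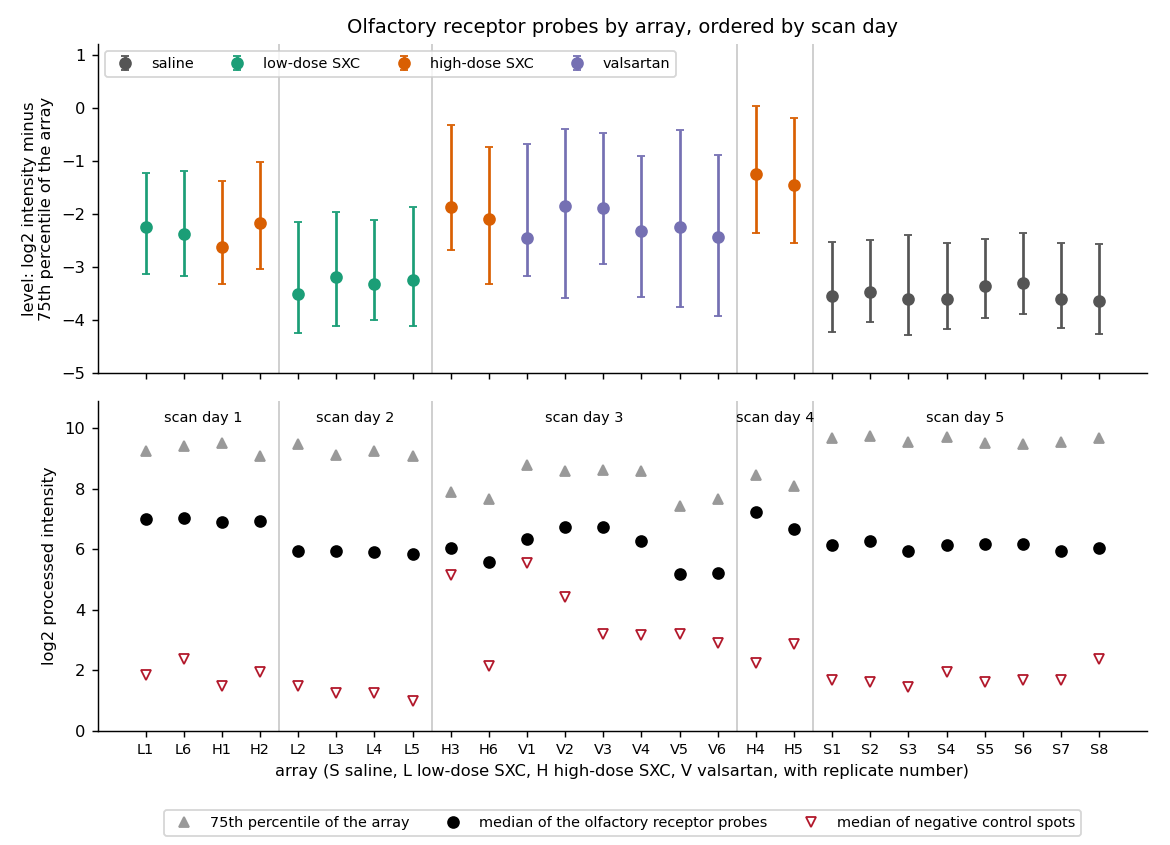
Upper panel: median level of the 181 probes on each array (points, bars the quartiles), in order of scan day. Lower panel: log2 intensity of the array's 75th percentile, of the members' median and of the negative control spots. The low-dose arrays of day 1 lie with the high-dose arrays of that day, and those of day 2 with saline.

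The high dose was compared with the low dose to ask how the members varied with dose. Of the 181, 98 were higher and 0 lower at the high dose (limma, adjusted p under 0.05), where 15.1% of all 23744 probes tested were higher, 10.5% lower and 25.6% differed in either direction. Without scaling of the arrays 22 members were higher and 8 lower, where 4.54% of all probes were higher and 49.4% differed in either direction. The members' median difference was 1.03 against -0.05 over all probes. Of the 235 olfactory receptor probes outside the rule that entered the fit, 176 (74.9%) were higher, with a median of 1.89. They entered by being detected on at least 6 arrays of any group, high-dose arrays included, so their share is not an independent comparison. The 98 had a median of 1.46 (range 0.66 to 3.91). Class I gave 19 higher of 27 members (median difference 1.33) and class II 77 of 148 (1.01). By family, 13 of 17 in family 52 were higher, 14 of 24 in family 4, and 2 of 7 in family 13.

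Between arrays of the same scan day the differences were near 0. On day 1, 2 high-dose against 2 low-dose arrays gave 0 called members (limma; 1 at an unadjusted p under 0.05) and a median difference of -0.02, with 84 of 181 above 0. The same test called 0 of all 23744 probes. At the same gain, 2 high-dose against 6 low-dose arrays gave 0 called (14 unadjusted) and a median of 0.54, with 169 above 0. Only day 1 holds both doses, so scan day as a block rests on the same comparison, and the count was again 0. Of all probes, too, 0 passed at the same gain and 0% with scan day as a block. The 98 called members had a median same-day difference of -0.02 (range -0.81 to 0.70).

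Inside the low-dose group, all of 1 treatment, scan day went with a difference of the same kind. All 4 day 2 arrays were on 1 slide and the day 1 arrays on others, so scan day and slide cannot be told apart there. Of 175 members with values on all 6 arrays, 140 (80%) had both day 1 arrays above all 4 day 2 arrays, against 25.7% of all probes tested (21.3% had both below) and 21.1% of the other probes of the saline rule. Olfactory receptor probes outside the rule had a like share, 185 of 227 (81.5%), with a median difference in level of 1.33. These had entered the fit by detection on at least 6 arrays of any group, the low-dose arrays included. For the members the median difference was 0.83 in level and 0.94 in unscaled log2 intensity, and limma called 19 members higher and 0 lower, where 2.24% of all probes were higher. Both day 1 arrays lay below in 3 members, Or2b11 (-0.65), Or2b4 (-0.75) and Or2h2 (-0.36), named after their values were seen. Among other chemosensory probes of the saline rule 20 of 34 (58.8%) were above. Of the 98 members higher at the high dose, 92 were among the 140.

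**Figure D4:**
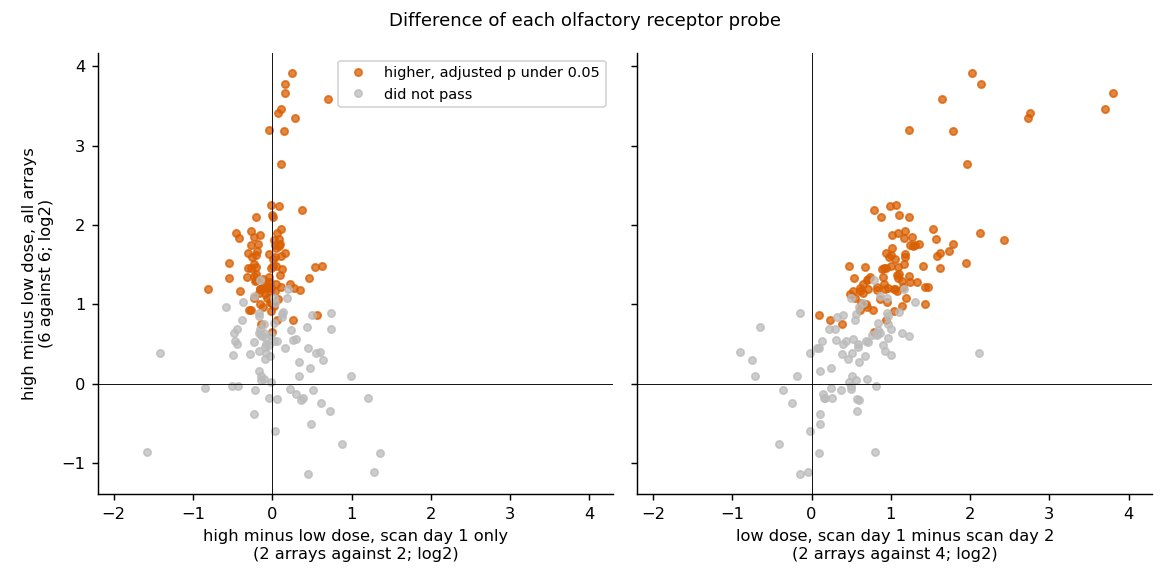
Difference of each member between high and low dose over all arrays (vertical, log2), against the same difference within scan day 1 (left) and against the low-dose difference between scan days 1 and 2 (right). Orange points passed limma's test over all arrays. On the left they spread around 0, with a median of -0.02, and on the right they lie above 0, with a median of 1.07.

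The members with the largest differences show this array by array. Or52ae7 (older name Olr103), a class I receptor, was at -4.05, -3.85 and -3.35 on saline (lowest, median, highest) and at 2.37, 2.81 and 3.47 on valsartan. Its low-dose levels were 1.24 and 1.44 on day 1 and -2.55 to -2.27 on day 2. Its high-dose levels were 1.15 and 1.86 on day 1, 2.92 and 2.98 on day 3 and 2.91 and 2.98 on day 4. High and low dose overlapped only through the arrays of day 1, and the difference of 3.66 ± 0.55 (SE; limma, adjusted p = 0.000137) stood beside 0.16 within day 1.

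Or52ae7b (older name Olr98), whose window aligned with that of Or52ae7, was fainter: -3.91 to -3.64 on the low-dose arrays of day 2, -2.17 and -2.08 on those of day 1, -1.49 and -1.35 at the high dose on day 1 and 0.61 to 1.76 at the high dose later. Its difference was 3.58 ± 0.53 (adjusted p = 0.000134, limma), and 0.70 within day 1. Or6aa1b (Olr19), a class II receptor, was at -1.67 to -1.39 on low-dose day 2, 2.16 and 2.22 on low-dose day 1, 2.02 and 2.58 on high-dose day 1 and 3.36 to 3.85 later. Its difference was 3.47 ± 0.53 (limma, adjusted p = 0.000137), and 0.11 within day 1. In both, the low-dose arrays of day 1 stood closer to the high-dose arrays of that day than to their own group.

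Or5b107, Or5ap2, Or5h17c and Or8g34b, all class II, repeated the order. Or5b107 rose by 3.91 ± 0.57 between the doses (limma, adjusted p = 0.000129), with 2.02 between the low-dose scan days and 0.25 between doses within day 1. The same 3 values were 3.77, 2.14 and 0.16 for Or5ap2, 3.35, 2.73 and 0.29 for Or5h17c and 3.18, 1.78 and 0.15 for Or8g34b. All 4 were well above background on all 26 arrays.

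Valsartan was compared with the low dose, with which it shares no scan day and no gain. Of the 181, 66 were higher and 6 lower (limma), where 12.9% and 14.5% of all probes were (27.4% together), and the members' median difference was 0.68 against -0.06. Without scaling of the arrays 19 members were higher and 37 lower, where 4.12% of all probes were higher and 62.5% differed in either direction. Of the 235 olfactory receptor probes outside the rule that entered the fit, 151 (64.3%) were higher and 0 lower. These entered by being detected on at least 6 arrays of any group, treated arrays included, so their share is not an independent comparison. The largest rises were those of Or5h17c (4.21 ± 0.55, SE), Or5ap2 (4.19 ± 0.64), Or8g34b (4.10 ± 0.49) and Or5b107 (4.06 ± 0.57). This comparison and that of high with low dose share the low-dose arrays. With scan day as a block, linked through the high-dose arrays of days 1 and 3, 0 members passed (12 at an unadjusted p under 0.05) and the median was -0.22. With gain as a block 0 members passed (13 unadjusted) and the median was 0.03. Of all probes only 0.0842% passed with scan day as a block and 0.0168% with gain, so these counts of 0 are not particular to the members. Unscaled, the median was -0.31, where that of all probes was -1.05.

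Of the 6 lower members, 4 were well above background on 0 valsartan arrays. Or8b59 (Olr1256) was at -1.90, -1.36 and -0.66 at the low dose and at -5.41, -4.50 and -3.26 on valsartan, where it was well above background on 0 of 6 arrays. The groups did not overlap (limma, adjusted p = 3.62e-05), and the low-dose mean lay 2.04-fold above the mean valsartan floor. The floor of an array is the lowest signal that still counted as well above background, here averaged over the dim group's arrays. Or1e27b, also on 0 valsartan arrays, fell too (limma, adjusted p = 0.000208), its low-dose mean 1.87-fold above that floor. On valsartan array 1 the floor lay above the low-dose means of both, so these folds are not bounds for every array. Or4k49 and Or10h1 were likewise well above background on 0 valsartan arrays and have no fold, Or2av10 fell by 0.67 on the log2 scale (limma, adjusted p = 0.0497, named after its value was seen), and Or8s5 is given above.

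Or51e1 (older name Olr63), known from prostate and other tissues outside the nose, was faint and steady on saline (-4.04, -3.82 and -3.67). It was at -3.24, -2.73 and -1.99 at the low dose, at -2.59, -1.43 and 0.16 at the high dose and at -2.06, -1.74 and 2.78 on valsartan. Valsartan array 5, at 2.78, stood far above the other 5, the next of which was at -0.86. Valsartan exceeded the low dose by 1.70 ± 0.56 (SE; limma, adjusted p = 0.0239), by 0.96 without valsartan array 5 (adjusted p = 0.0428), and by 1.58 without low-dose array 2 (adjusted p = 0.055). Or10j5, another receptor described outside the nose, was well above background on 0 of the 26 arrays, and Or51e2 and Or2at4 were not matched to a probe here.

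Valsartan was compared with the high dose, with which it shares scan day 3 and the lower gain. No slide held arrays of both groups, on day 3 or at the lower gain, so a difference between these groups is also one between slides. Of the 181, 5 were lower and 0 higher (limma), where 0.809% of all probes were lower, 0.16% higher and 0.969% differed in either direction, and the median difference was -0.24 against -0.05. Or8b59 fell (limma, adjusted p = 0.0157), its high-dose mean 1.21-fold above the mean valsartan floor, as did Or6x1 (limma, adjusted p = 0.0382), 1.12-fold above it. For both, the floors of some valsartan arrays lay above the high-dose mean, so these folds are not bounds for every array. Or52p1 fell by 1.64 ± 0.38 (SE) on the log2 scale (limma, adjusted p = 0.0347). It was well above background on 5 high-dose arrays but only 1 valsartan array, so that the size is uncertain. Or8b46c and Or1j14 also fell (limma, adjusted p = 0.0217 and 0.0393, on 0 valsartan arrays, with no fold). Or1j14 was named after its value was seen. The count of 5 fell to 0 with slide as a random block and to 1 with the replicate number as a block. Leaving out high-dose array 4 or 5 or valsartan array 5 gave 1, valsartan array 4 or 6 gave 2, and high-dose array 2 or valsartan array 3 gave 3, whereas leaving out high-dose array 1 gave 8, valsartan array 1 or 2 gave 9 and high-dose array 6 gave 12.

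Within day 3, 6 valsartan against 2 high-dose arrays gave 1 member higher and 4 lower, where 0.851% and 2.08% of all probes were, and a median of -0.21. Of the 5 members called over all arrays, only Or52p1 passed there too (limma, adjusted p = 0.00758), on values of which most were not well above background. It lay at -1.98 and -0.30 on the high-dose arrays of day 3, of which 1 was well above background, and at -4.28, -3.60 and -1.97 (lowest, median, highest) on valsartan, where 1 of 6 was. The highest valsartan array lay just above the lower high-dose array, and the others below it. At the lower gain, 6 valsartan against 4 high-dose arrays gave 17 lower and 0 higher, where 3.47% and 1.58% of all probes were, and a median of -0.50.

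Against saline, as a description, the members' median difference was 0.51 at the low dose, 1.42 at the high dose and 1.01 on valsartan, against 0.08, 0.10 and 0.10 over all probes tested. These values share the saline arrays and the choice of the members. When saline arrays 1 with 5, 2 with 6 and 3 with 7 were averaged and arrays 4 and 8 left out, the medians were 0.44, 1.39 and 0.95. Deviations from the saline mean correlated at 0.416, 0.366 and 0.771 in these pairs. Other pairs of the same arrays, 5 with 6 (0.606) and 1 with 2 (0.53), exceeded the lower values. The low-dose median was 1.06 with only the low-dose arrays of day 1 and 0.20 with only those of day 2.

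Markers of other cell types differed from saline as well. Of 25 measured markers of smooth muscle, endothelium, adipocytes, fibroblasts, blood and macrophages, 10 were lower on every treated array than on every saline array and 0 were higher, where 7.09% of all probes tested were lower and 6.62% higher in this way. The 10 were all 3 blood and all 3 macrophage markers, 3 of 4 endothelial markers and Dcn of the fibroblasts. The mean level of the blood markers was 3.98 to 6.87 on the saline arrays and -0.71 to 1.33 on the treated ones, with the haemoglobin gene Hbb-b1 at 7.89 ± 0.72 on saline (SD, n = 8) and 2.03 ± 0.77 at the low dose (n = 6). The 8 smooth muscle markers, in contrast, overlapped saline. Between treated groups 1 of the 25 markers rose and 2 fell from low to high dose (limma), where 15.1% of all probes rose and 10.5% fell. On valsartan 2 rose and 5 fell against the low dose (all probes 12.9% and 14.5%), and 0 passed against the high dose (all probes 0.969%). With scan day or gain as a block, 0% of all probes passed between the doses, these markers included. The part of these cells in the receptor differences was not tested.

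Of the olfactory list 12 genes were tested. From low to high dose 3 rose and 0 fell, where 15.1% of all probes rose and 10.5% fell: Pde1c (adjusted p = 0.00579), Ebf1, an early B-cell factor of olfactory neurons (by 1.34, adjusted p = 0.0191), and Rtp1 (by 1.14, adjusted p = 0.0477, all limma). On valsartan against the low dose 2 rose and 3 fell, where 12.9% and 14.5% of all probes did. Rtp1 rose by 1.84 and Pde1c also rose, whereas Gnal (-1.98) fell, as did Emx2, a homeodomain regulator of receptor genes, and Adcy3. On valsartan against the high dose Ebf1 fell (limma, adjusted p = 0.0409). Pde1c was well above background on 1 low-dose, 3 high-dose and 2 valsartan arrays, Emx2 on 1 valsartan array, and Adcy3 and Ebf1 on 0 valsartan arrays, so no size is given for these differences. With scan day or gain as a block, 0% of all probes passed between the doses, these genes included. For valsartan against the low dose 0.0842% of all probes passed with scan day as a block and 0.0168% with gain. Between the low-dose scan days (day 1 minus day 2) Rtp1 differed by 1.16, Ebf1 by 0.58, Gnal by -0.174, Adcy3 by -0.165 and Emx2 by -0.66.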

How the data were processed

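Total RNA of each aorta was labelled with Cy3 and read on a 1-colour Agilent rat array. Per the file headers, the authors quantified the arrays with Feature Extraction 11.0.1.1, and the deposited processed intensity is background-subtracted and detrended within an array but not normalised between arrays. Its flags per spot were used as deposited. A further deposited table from the authors holds log2 values made by a method that no source here names, and served as an alternative. Levels are log2 processed intensity minus the 75th percentile of the array without control probes; outlier spots were left out and spots of a probe averaged. Of 30367 probes, the 23744 detected above background on 6 or more arrays, all members included, entered 1 limma fit (limma 3.58.1, R 4.3.3; lmFit, contrasts, eBayes with a trend, 2-sided) of 4 groups, adjusted with Benjamini-Hochberg over all probes. Missing values of 10 members were left out of the fit.

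Probes were named through their accession in the GRCr8 gene table; the headers name build rn4. Named members are the 8 brightest on saline, the 4 largest rises and falls of each comparison of treated groups, the 3 smallest and largest SDs, those at the edge of the detection rule and those known outside the nose. The members and lists were chosen with earlier results of these data known. Same-numbered arrays do not pair: deviations from the group means correlated at -0.365 to 0.277 over 18 pairs, over 0.1 in 3. P-values measure the spread between these arrays, and their number limits the precision (median SE of a member's difference 0.37 between treated groups). The fit was tested on simulated data. Sequences were aligned with Biopython 1.88 and figures drawn with matplotlib 3.10.9. Alternatives were other scalings, background correction, filters, blocks for gain, scan day, slide and replicate number, and arrays left out.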

Additional observations from a re-analysis of the deposited data

Results flagged for a closer look

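In 9 of 116 sets of values (7.76%), each a group of 6 or 8 arrays, the highest or lowest array lay apart from the others by Dixon's test. Chance alone gives about 1 in 20 such sets. High-dose array 3 had 52 members well above background, and the next lowest high-dose array 133. Saline array 4 stood high for Or8b12 (level 4.75, next 3.35) and for Or8g34b (-2.60, next -3.87), and saline array 1 for Or5h17c (-2.34, next -3.60). At the high dose, array 2 was high for Or1f26 (0.83, next 0.37) and array 4 for Or8b46c (-1.81, next -2.62). On valsartan, array 4 was high for Or7g25 (0.39, next -3.16), array 5 for Or51e1 (2.78, next -0.86), and array 6 was low for Or4a80 (-1.61, next -1.09). Causes were not tested.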

How the results depend on the processing

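The comparison of high with low dose, with 98 members called and a median difference of 1.03, called 30 without scaling (22 higher, 8 lower; median 0.21), 60 with quantile normalisation (median 0.63), 60 with the authors' values (0.67), 26 of 37 with only probes well above background on all arrays, 35 with slide as a random block and 0 with gain or scan day as a block or within the same gain or scan day (median -0.017 for scan day). Valsartan against the low dose, with 72 called and a median of 0.68, called 142 with normexp background correction, 23 on the probes above background throughout (median 1.29), 29 with slide as a block, 0 with gain as a block (median 0.031) and 0 with scan day as a block (median -0.22); without scaling 19 were higher and 37 lower (median -0.31), and the median was 0.29 with quantile normalisation and 0.32 with the authors' values. Valsartan against the high dose, with 5 called and a median of -0.24, called 0 without scaling, with normexp, on the probes above background throughout or with slide as a block, 3 with the authors' values or no filter, 18 with gain as a block, 17 within the same gain and 1 with the replicate block; its median turned to 0.09 with normexp and was -0.05 on the probes above background throughout. The replicate block moved no other count of calls by over 1.5 times (87 and 67). Of all probes, 49.4% passed between the doses without scaling (4.54% higher) and 62.5% for valsartan against the low dose (4.12% higher). With gain as a block 0% and 0.0168% of all probes passed in these comparisons, and with scan day as a block 0% and 0.0842%. Between the doses, these blocks rest on the same arrays as the comparisons within the same gain or scan day.

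Against saline, the high-dose median of 1.42 became 0.26 without scaling, 0.88 with quantile normalisation and 0.96 with the authors' values. The valsartan median of 1.01 became -0.33 without scaling, 0.64 with quantile normalisation, 1.28 with normexp, 0.69 with the authors' values and 0.47 with gain as a block, and the low-dose median of 0.51 became 1.06 with only the arrays of scan day 1, 0.20 with only those of day 2, 0.16 without scaling and 0.28 with the 75th percentile over probes well above background on all arrays. Without scaling the median of all probes was -0.85 between the doses, -1.05 for valsartan against the low dose, -0.23 against the high dose, and -1.06 and -1.24 for the high dose and valsartan against saline; with normexp it was 0.35 for valsartan against the low dose and 43.4% of all probes were higher.

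Leaving out single arrays gave 67 to 107 calls (median 0.87 to 1.17) between the doses, 50 to 76 (0.57 to 0.83) for valsartan against the low dose and 1 to 12 (-0.40 to -0.13) for valsartan against the high dose. The last count moved by over 1.5 times without any array of the pair except high-dose array 3, which gave 6. Of named members, the call between doses was lost without several single arrays for Or8b12 (8 of 12 arrays), Or51f1g (7), Or9e1 (7) and Or6x1 (4), and that of valsartan against the high dose for Or6x1 (7), Or52p1 (5) and Or8b46c (3).

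Differences with a call on either side turned sign with scan day as a block or within day 1 for Or8b12 (-0.11), Or6x1 (-0.019) and Or51f1g (-0.27) between the doses. For valsartan against the low dose they turned with scan day as a block for Or5b107 (-0.27), Or5ap2 (-0.38) and Or4k49 (0.32), with gain as a block for Or4k49 (0.14), with normexp for Or4k49 (0.25), Or10h1 (0.42), Or6x1 (0.70) and Or8b46c (0.42), and without scaling for Or4d6 (-0.77). Among 1038 values of named members under all alternatives, 758 kept direction and side of the threshold and 125 turned sign, 110 of them with no call before or after. Without scaling 14 of 81 turned, among them Or6al1 (0.34 to -0.65) for valsartan against the low dose and Or4d6 (0.31 to -0.50) and Or2ak6 (0.16 to -0.65) between the doses. The cause of these changes was not tested. Naming probes by a gene name column was not run, since the files used here have no such column. Calling the detection rule on 7 of 8 saline arrays gave 232 members.

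Signal over background limits the results: members' medians lay 0.90 and 0.80 log2 units above the negative controls on high-dose array 3 and valsartan array 1, and 34 members were well above background on 0 valsartan arrays.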
